A study of Mus musculus with 4 samples.

Results

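Fibronectin, tenascin-C, periostin, versican, osteopontin and the thrombospondins are secreted proteins of the extracellular matrix (ECM), and their mRNA was measured here through 9 genes, *Fn1*, *Tnc*, *Postn*, *Vcan*, *Spp1*, *Thbs1*, *Thbs2*, *Thbs3* and *Thbs4*. The genes were chosen by name out of the 45706 genes in the count table, and every member had counts in all 4 lungs. RNA came from left lung lobes of untreated C57BL/6 mice on embryonic day 17 (E17). The groups were 2 wild-type mice (*Myh10*+/+) and 2 mice homozygous for the L458R allele of *Myh10* (*Myh10* L458R/L458R, here called mutant). This allele is a missense change in the motor domain of non-muscle myosin heavy chain II-B, was induced with *N*-ethyl-*N*-nitrosourea and is carried by all cells of the mouse. Other induced changes that the mutant mice may carry were not analysed here. The comparison addresses whether the homozygous L458R allele was accompanied by different mRNA levels of these matrix genes in the whole lobe.

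Fibronectin is assembled by cells into fibrils as integrins pull on it through the actomyosin cytoskeleton, and the fibrils serve as a scaffold for other matrix proteins. Matricellular proteins such as the thrombospondins, tenascin-C, periostin and osteopontin contribute less to the mechanical structure of the matrix and more to signaling, through receptors, growth factors and proteases that they bind. In the developing lung much of this matrix is made by mesenchymal cells around the airways, vessels and future air spaces.

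Reads counted on genes totaled 23156026 and 19116971 in wild-type lungs 1 and 2, and 27573824 and 32055306 in mutant lungs 1 and 2. Levels within a gene are given as CPM, the TMM-normalized count on a common library scale, and levels between genes as RPKM, which divides CPM by the length of the exons in kilobases. Fold changes are mutant over wild type from the quasi-likelihood test of edgeR, with a standard error (SE), a 95% interval and a Benjamini-Hochberg adjusted p over 18763 tested genes, those averaging 5 counts or more. The labelled tissue was checked with *Nkx2-1*, a transcription factor of lung epithelium, which was at 434 and 455 CPM in wild-type lungs and at 455 and 448 CPM in mutant lungs. *Myh10* itself was at 505 and 504 CPM in wild-type lungs and at 540 and 513 CPM in mutant lungs, and since the allele is a missense change its count does not check the genotype labels. *Xist* was at 3916 CPM in wild-type lung 1 and 4457 CPM in mutant lung 2, whereas the Y-linked *Ddx3y* was at 182 CPM in wild-type lung 2 and 198 CPM in mutant lung 1, so each genotype held a lung of either sex.

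None of the 9 genes passed an adjusted p of 0.05 in edgeR (0 of 9, where 1.64% of all tested genes did, 1.34% as lower and 0.298% as higher in mutant lungs). At an unadjusted p under 0.05 there were 2, *Vcan* and *Postn*, beside 16.5% of all tested genes. DESeq2 also called 0 members at an adjusted p of 0.05 and 2 at an unadjusted one, and gave no adjusted p for *Thbs4* and *Spp1*. The mutant lungs both lay above the wild-type lungs for 3 members (*Tnc*, *Thbs3* and *Vcan*), a pattern found in 23.9% of all tested genes. They both lay below for 2 members (*Postn* and *Thbs4*), a pattern found in 24.3% of all tested genes. Among all tested genes, 252 were lower and 56 higher (81.8% of the calls lower), against 234 and 112 (67.6% lower) when library totals replaced TMM, and without mutant lung 2 the number called was 1643 instead of 308, with 875 lower and 768 higher (53.3% lower). The median log2 fold change was 0.06 over the 9 members and 0.002 over all tested genes, with 5 positive and 4 negative values among the members. A missed threshold with 2 lungs per genotype does not show equal levels, and the interval of each gene gives the sizes of difference that the fit allows. In bulk tissue, fewer cells of a type and less RNA per cell cannot be told apart.

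*Fn1* encodes fibronectin, the dimeric glycoprotein that cells assemble into fibrils, and it lies on the minus strand of chromosome 1 from 71585520 to 71653200 (GRCm38). It was at 1198 and 1015 CPM in wild-type lungs and at 1078 and 1083 CPM in mutant lungs. Both mutant values fell between the wild-type values, so the genotypes overlapped, and the spread came from the wild-type lungs. The log2 fold change was -0.04 (SE 0.10, 95% interval -0.25 to 0.18, adjusted p = 0.902), which in percent is an interval of -15.7% to 13.1%. Without wild-type lung 1, which had the highest level, the log2 fold change was 0.09, and without wild-type lung 2 it was -0.15. The sign of the *Fn1* difference thus depended on which wild-type lung was kept. *Fn1* took between 45.1% and 49.6% of the CPM summed over the 9 genes in each lung, a share of counts not corrected for exon length. Its splice forms were not analysed here.

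*Tnc* encodes tenascin-C, a hexameric glycoprotein found around branching epithelium and in remodeling tissue (chromosome 4, 63959785 to 64047015, minus strand). It was at 128 and 126 CPM in wild-type lungs and at 140 and 131 CPM in mutant lungs. Both mutant lungs lay above both wild-type lungs, by a margin smaller than the distance between the mutant lungs. This gave a log2 fold change of 0.10 (SE 0.05, 95% interval -0.02 to 0.21, adjusted p = 0.394), and it was 0.05 without mutant lung 1 and 0.14 without mutant lung 2. *Postn* encodes periostin, which binds fibronectin and tenascin-C and takes part in collagen assembly (chromosome 3, 54361109 to 54391037, plus strand). It was at 379 and 337 CPM in wild-type lungs and at 331 and 313 CPM in mutant lungs. The mutant lungs were the lower ones, but wild-type lung 2 and mutant lung 1 were close to each other. The log2 fold change of *Postn* was -0.15 (SE 0.06, 95% interval -0.29 to -0.02, unadjusted p = 0.0275, adjusted p = 0.233). It was -0.07 without wild-type lung 1, -0.23 without wild-type lung 2, -0.19 without mutant lung 1 and -0.11 without mutant lung 2. With no filter on low counts *Postn* passed the threshold at the same size (log2 fold change -0.15, adjusted p = 0.0450).

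*Vcan* encodes versican, a large chondroitin sulfate proteoglycan that binds hyaluronan and makes up much of the provisional matrix of embryonic tissue (chromosome 13, 89655312 to 89742509, minus strand). It was at 284 and 295 CPM in wild-type lungs and at 346 and 306 CPM in mutant lungs. Both mutant lungs lay above both wild-type lungs, with mutant lung 1 standing farther from them than mutant lung 2. Its log2 fold change was 0.17 (SE 0.06, 95% interval 0.04 to 0.30, unadjusted p = 0.0132, adjusted p = 0.171), the lowest adjusted p among the members. Which side of the threshold *Vcan* fell on depended on the processing. With no filter on low counts it passed (log2 fold change 0.18, adjusted p = 0.0109), and without mutant lung 2 it passed as well (0.26, adjusted p = 0.00390). Without mutant lung 1 the log2 fold change of *Vcan* was 0.09 (adjusted p = 0.578).

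The thrombospondins are secreted as trimers (*Thbs1* and *Thbs2*) or as pentamers (*Thbs3*, *Thbs4* and *Comp*). *Thbs1* encodes thrombospondin-1, an activator of latent TGF-β and a ligand of CD36 and CD47 (chromosome 2, 118111876 to 118127133, plus strand). It was at 322 and 351 CPM in wild-type lungs and at 378 and 322 CPM in mutant lungs. The genotypes overlapped, since wild-type lung 1 and mutant lung 2 had the same level and the highest value was that of mutant lung 1. For *Thbs1* the log2 fold change was 0.06 (SE 0.07, 95% interval -0.10 to 0.21, adjusted p = 0.748), which in percent is an interval of -6.70% to 15.9%. Leaving out mutant lung 1 gave -0.06, leaving out wild-type lung 1 gave -0.005, and leaving out mutant lung 2 or wild-type lung 2 gave 0.17 and 0.12. The sign of the *Thbs1* difference was thus not stable to the choice of lungs.

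*Thbs2* encodes thrombospondin-2, which binds MMP2 and promotes its uptake by cells (chromosome 17, 14665500 to 14694235, minus strand). It was at 45.0 and 47.8 CPM in wild-type lungs and at 51.3 and 47.1 CPM in mutant lungs. The genotypes overlapped, since mutant lung 2 lay between the wild-type lungs. The log2 fold change was 0.08 (SE 0.08, 95% interval -0.09 to 0.26, adjusted p = 0.638), which in percent is an interval of -5.81% to 19.3%. It was 0.02 without mutant lung 1, 0.04 without wild-type lung 1, 0.13 without wild-type lung 2 and 0.15 without mutant lung 2. For both trimer genes the intervals left room for differences in either direction.

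*Thbs3* belongs to the pentameric thrombospondins, which interact with collagens (chromosome 3, 89215180 to 89226837, plus strand). It was at 54.2 and 53.9 CPM in wild-type lungs and at 60.5 and 57.1 CPM in mutant lungs. Both mutant lungs lay above the wild-type lungs, which were nearly equal. *Thbs3* had a log2 fold change of 0.12 (SE 0.07, 95% interval -0.04 to 0.28, adjusted p = 0.434). *Thbs4*, a pentameric member known from tendon and muscle matrix (chromosome 13, 92751590 to 92794818, minus strand), was at 4.72 and 3.89 CPM in wild-type lungs and at 3.63 and 2.95 CPM in mutant lungs. These levels rested on 108 and 74 counts in wild-type lungs and on 101 and 95 counts in mutant lungs. The mutant lungs of *Thbs4* were the lower ones, with mutant lung 1 close to wild-type lung 2. The log2 fold change was -0.40 (SE 0.19, 95% interval -0.82 to 0.02, adjusted p = 0.323), the largest in size among the members and, after *Spp1*, the least precise. It was -0.25 without wild-type lung 1, -0.52 without wild-type lung 2, -0.55 without mutant lung 1 and -0.25 without mutant lung 2. The pentameric relative *Comp*, named for its abundance in cartilage, had only 6 or 7 counts in each lung, too few for a difference to be seen at this depth (log2 fold change -0.51, 95% interval -1.67 to 0.65, adjusted p = 0.689). *Thbs1* supplied between 75% and 76.8% of the CPM of the thrombospondin genes with *Comp* in each lung, again without correction for exon length.

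*Spp1* encodes osteopontin, a secreted phosphoprotein made by bone cells, macrophages and some epithelia that binds integrins and CD44 (chromosome 5, 104435118 to 104441050, plus strand). It was at 0.699 and 0.473 CPM in wild-type lungs and at 0.611 and 0.559 CPM in mutant lungs. Its counts were 16 and 9 in wild-type lungs and 17 and 18 in mutant lungs. The genotypes overlapped, as both mutant values fell between the wild-type values. *Spp1* had a log2 fold change of -0.03 (SE 0.40, 95% interval -0.89 to 0.84, adjusted p = 0.985), an interval of -46.1% to 79.0% in percent, so a sizeable difference in either direction was not detectable at this depth. It was 0.30 without wild-type lung 1, -0.26 without wild-type lung 2, 0.04 without mutant lung 2 and -0.08 without mutant lung 1.

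**Figure D1:**
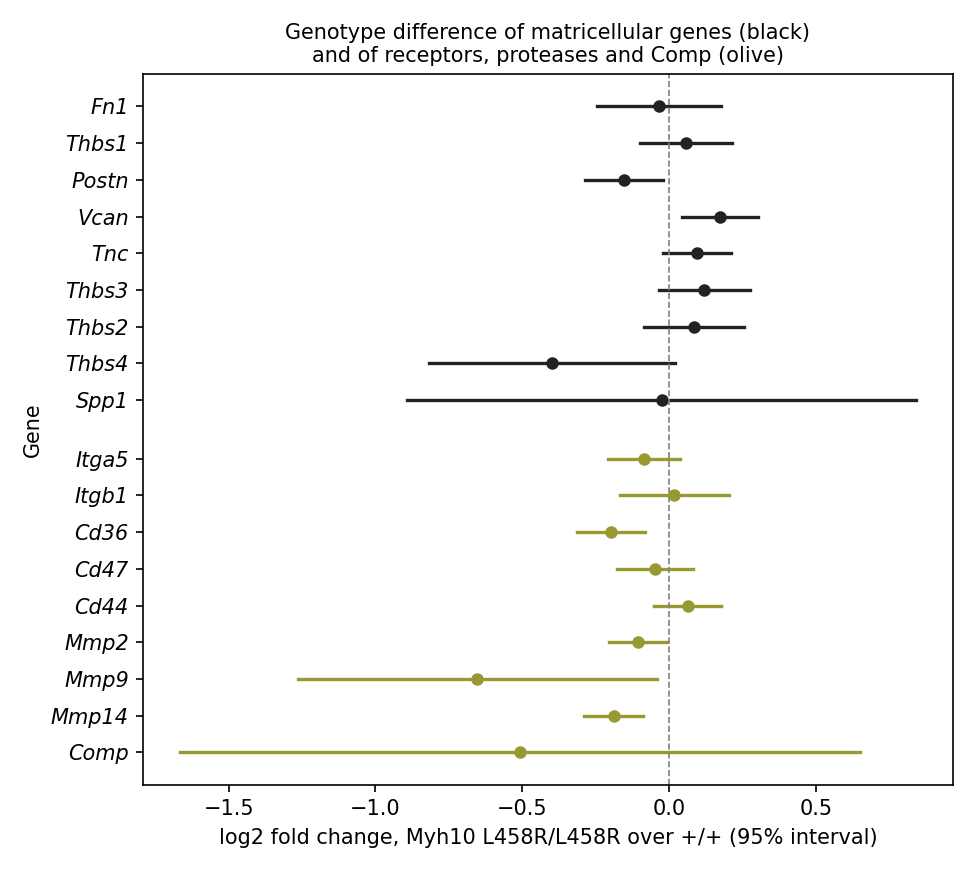
Log2 fold change (mutant over wild type, horizontal axis) of the 9 genes in black and of 9 receptor, protease and related genes in olive, with points for the estimate and lines for its 95% interval from edgeR. The intervals of *Vcan* (0.04 to 0.30) and *Postn* (-0.29 to -0.02) lie on either side of 0, and those of *Thbs4*, *Spp1*, *Mmp9* and *Comp* are the widest.

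Levels between the genes were compared per length of exon, as RPKM. *Fn1* was the most abundant, with 103 and 86.9 RPKM in wild-type lungs and 92.2 and 92.7 RPKM in mutant lungs. *Thbs1* followed with 53.0 to 62.2 RPKM over the 4 lungs. *Postn* came next with 35.9 to 43.5 RPKM. The RPKM ranges of these genes over the 4 lungs did not overlap. Below them *Vcan* ranged from 19.6 to 23.9 RPKM, and *Tnc* ranged from 16.2 to 18.1 RPKM. The pentameric *Thbs3* had a higher level (11.2 to 12.5 RPKM) than the trimeric *Thbs2* (6.43 to 7.33 RPKM). At the bottom were *Thbs4* with 0.898 to 1.43 RPKM and *Spp1* with 0.287 to 0.424 RPKM, and no neighbors in this order overlapped over the 4 lungs. The order of *Thbs1* and *Postn* depended on the length used. By the longest transcript of each gene, *Postn* had 59.9 to 72.5 RPKM and *Thbs1* had 55.0 to 64.6 RPKM, so these neighbors overlapped and *Postn* was ahead in the wild-type mean (68.5 against 57.5 RPKM).

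**Figure D2:**
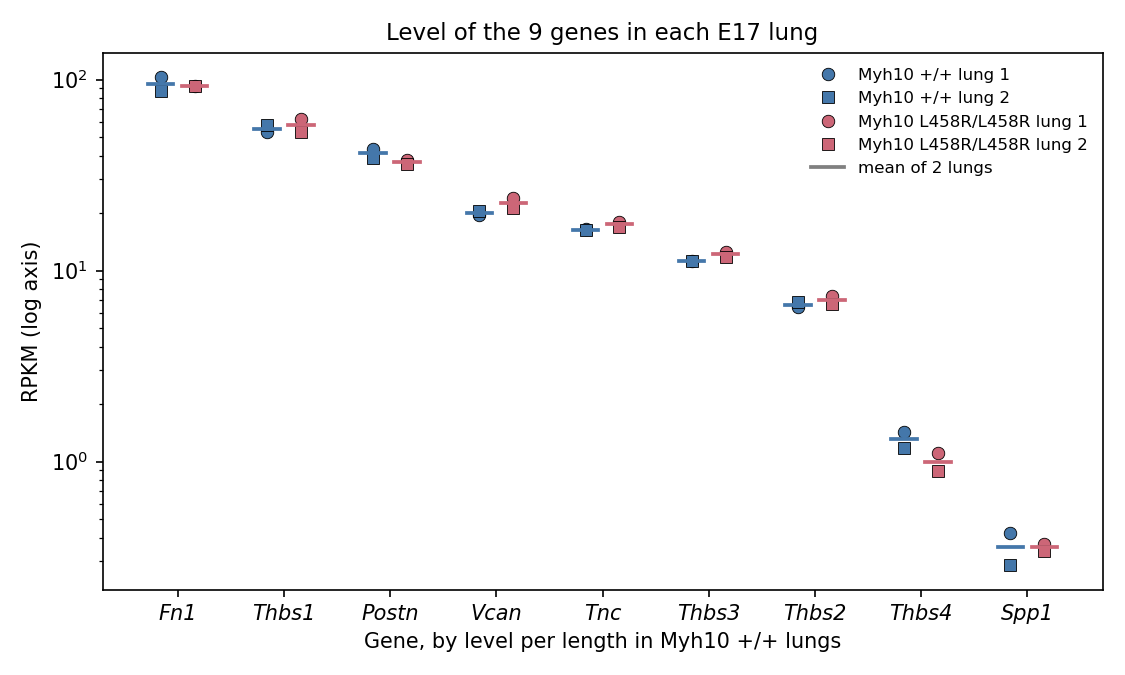
Level of each gene in RPKM by union exon length (log axis) in the wild-type lungs (blue) and mutant lungs (red), with a circle for lung 1, a square for lung 2 and a bar for the mean of the genotype. The genes span from *Fn1* at 94.7 RPKM to *Spp1* at 0.355 RPKM in the wild-type mean, and the genotypes lie close together within each gene.

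Summed over the 9 genes, the level was 2414 and 2230 CPM in wild-type lungs and 2389 and 2263 CPM in mutant lungs, so the genotypes overlapped. That sum made up between 0.223% and 0.241% of the normalized counts of a lung. Wild-type lung 1 had the highest sum and the highest *Fn1* level, whereas the mutant lungs differed in the sum with nearly equal *Fn1* levels.

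Parts of some members' exons are shared with other genes, and the sources used here do not give the strand setting of the counting. *Fn1* exons overlap 292 bp of the antisense gene *Apol7d*, which had 12 to 19 counts a lung. For *Thbs3* the overlap is 318 of its 4823 bp of exons, with the antisense gene *Mtx1*, which was at 25.0 to 29.8 CPM. The part of the *Thbs3* count that comes from this stretch is uncertain. *Tnc* overlaps 176 bp of *8030451A03Rik* (42 to 70 counts a lung) and *Thbs1* overlaps 208 bp of *Gm29233* (0 to 6 counts a lung), both antisense. *Spp1* overlaps 309 bp of *Gm42793* on its own strand, where a read would be left out as lying in several genes. Windows of 75 bases, the read length, were taken along a transcript of *Thbs1*, *Thbs2*, *Thbs3* and *Thbs4*. None occurred in another of these genes, so these paralogs did not share reads of that length. *Comp* was not among the transcripts cut into windows.

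The receptors of the thrombospondins and their relatives gave 0 calls among 15 tested genes in edgeR at an adjusted p of 0.05. At an unadjusted p under 0.05 there were 6, and the median log2 fold change was -0.05. The shares over all tested genes were 1.64% and 16.5%. *Cd36*, a scavenger receptor that binds thrombospondin-1, was at 241 and 228 CPM in wild-type lungs and 196 and 213 CPM in mutant lungs. Both mutant lungs lay below the wild-type lungs, and the log2 fold change of -0.20 (SE 0.05, 95% interval -0.32 to -0.08, adjusted p = 0.0870) missed the threshold. *Cd47*, the integrin-associated receptor of thrombospondin-1, had a log2 fold change of -0.05 (SE 0.06, 95% interval -0.18 to 0.08, adjusted p = 0.743). *Itgb1*, the β subunit shared by many receptors of fibronectin, thrombospondins and tenascin-C, was at 1105 to 1136 CPM in all 4 lungs, with a log2 fold change of 0.02 (SE 0.09, 95% interval -0.17 to 0.20, adjusted p = 0.946). *Itga5*, its partner in the main fibronectin receptor, had a log2 fold change of -0.09 (SE 0.06, 95% interval -0.21 to 0.04, adjusted p = 0.481).

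Among 22 genes of fibronectin receptors and assembly, 3 were lower and 1 was higher in mutant lungs at an adjusted p under 0.05 in edgeR. The shares over all tested genes were 1.34% and 0.298%. At an unadjusted p under 0.05 there were 9, beside 16.5% of all tested genes, and the median log2 fold change was -0.10. *Itgb6*, the epithelial β subunit of a fibronectin receptor that activates TGF-β, was at 50.6 and 49.5 CPM in wild-type lungs and 33.2 and 41.1 CPM in mutant lungs (log2 fold change -0.43, SE 0.10, adjusted p = 0.0481). *Itga9*, the α subunit of a receptor for tenascin-C and osteopontin, was at 141 and 134 CPM in wild-type lungs and 111 and 117 CPM in mutant lungs (-0.27, SE 0.05, adjusted p = 0.0336). *Tgm2*, a transglutaminase that cross-links and binds fibronectin, was at 145 and 133 CPM in wild-type lungs and 102 and 118 CPM in mutant lungs (-0.34, SE 0.07, adjusted p = 0.0372). The gene called as higher was *Itgb8*, the β subunit of another receptor that activates TGF-β, at 8.16 and 7.51 CPM in wild-type lungs and 13.0 and 10.8 CPM in mutant lungs (0.60, SE 0.12, adjusted p = 0.0362). All mutant lungs lay outside the wild-type range for these 4 genes, which were named because they were called. Among all tested genes, both mutant lungs lay below the wild-type lungs in 24.3% and above them in 23.9%. For *Fn1* itself both mutant lungs lay inside the wild-type range. Whether *Fn1* and these genes differed in their response to genotype was not tested.

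Among 20 tested partners of versican, hyaluronan and osteopontin, 1 was higher and 0 were lower in edgeR, with 6 at an unadjusted p under 0.05 and a median log2 fold change of 0.09. The gene called was *Stab2*, a scavenger receptor that clears hyaluronan, at 21.2 and 20.2 CPM in wild-type lungs and 32.2 and 27.9 CPM in mutant lungs (log2 fold change 0.53, SE 0.09, adjusted p = 0.0118). *Mepe* had 0 counts in all lungs. *Cd44*, the receptor of hyaluronan and osteopontin, was at 112 and 115 CPM in wild-type lungs and 116 and 120 CPM in mutant lungs, with a log2 fold change of 0.06 (SE 0.05, 95% interval -0.05 to 0.18, adjusted p = 0.596). Of 28 other matricellular genes, 3 were lower and 0 higher in edgeR, with 14 at an unadjusted p under 0.05 and a median log2 fold change of -0.17. Over all tested genes the shares were 1.34%, 0.298% and 16.5%. The 3 genes called were *Spock2*, a testican proteoglycan (log2 fold change -0.74, SE 0.12, adjusted p = 0.0118), *Spon1*, which encodes F-spondin with thrombospondin type repeats (-0.49, SE 0.09, adjusted p = 0.0241), and *Igfbp7*, an insulin-like growth factor binding protein (-0.36, SE 0.08, adjusted p = 0.0466). *Spock2* was at 67.9 and 67.3 CPM in wild-type lungs and 33.8 and 46.8 CPM in mutant lungs.

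Of 8 tested matrix proteases and inhibitors, 1 was lower and 0 were higher in edgeR, with 4 at an unadjusted p under 0.05 and a median log2 fold change of -0.09. Over all tested genes the shares were 1.34%, 0.298% and 16.5%. *Timp3*, a matrix-bound inhibitor of metalloproteinases, was at 389 and 345 CPM in wild-type lungs and 267 and 287 CPM in mutant lungs (log2 fold change -0.41, SE 0.06, adjusted p = 0.0108). *Mmp2*, a gelatinase that thrombospondin-2 binds, was at 271 and 273 CPM in wild-type lungs and 250 and 256 CPM in mutant lungs. Its mutant lungs lay below its wild-type lungs, with a log2 fold change of -0.11 (SE 0.05, 95% interval -0.21 to -0.01, adjusted p = 0.263) that missed the threshold. *Mmp14*, the membrane-bound activator of MMP2, was at 291 and 298 CPM in wild-type lungs and 256 and 261 CPM in mutant lungs (-0.19, SE 0.05, 95% interval -0.29 to -0.09, adjusted p = 0.0662). *Mmp9*, the other gelatinase, had 31 to 42 counts a lung, and its log2 fold change of -0.65 (SE 0.28, 95% interval -1.27 to -0.04, adjusted p = 0.268) missed the threshold. The counts of *Timp3*, *Tgm2*, *Stab2* and *Igfbp7* are uncertain, because antisense genes overlap their exons.

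Markers of the cells that make these matrix proteins were counted in the same lungs. None of 17 fibroblast markers passed in edgeR (4 at an unadjusted p under 0.05), their median log2 fold change was 0.003, and their summed level was 8610 and 8638 CPM in wild-type lungs and 8309 and 8491 CPM in mutant lungs. The most abundant of them, *Mfap4*, was at 2357 and 2249 CPM in wild-type lungs and 2093 and 2390 CPM in mutant lungs. Smooth muscle and myofibroblast markers gave 0 of 10 at either p threshold, a median log2 fold change of -0.07, and summed levels of 1085 and 1106 CPM against 1040 and 1034 CPM, with *Acta2* the most abundant (329 and 365 CPM against 317 and 323 CPM). The sums of both mesenchymal lists were lower in both mutant lungs than in both wild-type lungs, and their part in the levels of the 9 genes was not tested.

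Other cell types that can supply single members were also followed. For *Thbs1*, which platelets store, the 10 megakaryocyte and platelet markers gave 0 calls in edgeR and 0 at an unadjusted p under 0.05, with a median log2 fold change of -0.27 and summed levels of 29.8 and 31.5 CPM in wild-type lungs and 25.6 and 30.1 CPM in mutant lungs. *Itga2b* was the most abundant of them, at 12.8 and 12.1 CPM against 10.9 and 11.5 CPM. For *Spp1*, 1 of 12 macrophage markers was lower, the most abundant one, *Lyz2* (log2 fold change -0.44, SE 0.09, adjusted p = 0.0293), and the median log2 fold change was -0.18. The macrophage list summed to 406 and 381 CPM in wild-type lungs and 319 and 352 CPM in mutant lungs, and without *Lyz2* to 219.9 and 208 CPM against 202 and 204 CPM. For *Thbs4*, the 2 tested tendon markers gave 0 calls at either p threshold with a median log2 fold change of -0.02, and the list summed to 24.1 and 26.8 CPM against 25.0 and 25.1 CPM. *Mkx*, the most abundant of them in the mean of the 4 lungs, was at 11.8 and 13.7 CPM against 13.2 and 12.4 CPM, and *Scx* was close to it (12.3 and 13.1 CPM against 11.7 and 12.6 CPM). Of 9 tested cartilage markers 0 passed in edgeR, with 1 at an unadjusted p under 0.05, a median log2 fold change of 0.13, summed levels of 66.8 and 71.7 CPM against 78.0 and 74.8 CPM, and *Sox9* the most abundant. *Sox9* was at 29.6 and 31.7 CPM in wild-type lungs and 34.7 and 32.4 CPM in mutant lungs. Over all tested genes, 1.34% were called as lower in edgeR. The part of these cell types in the levels of *Thbs1*, *Spp1*, *Thbs4* and *Comp* was not tested. Which cells the counts of *Lyz2* and *Sox9* came from was not tested either, so their levels cannot be assigned to macrophages or cartilage.

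The summed levels of striated muscle, lung epithelium, endothelial and immediate early genes were lower in both mutant lungs than in both wild-type lungs. This held with or without their called genes. Of the sums given above, those of fibroblast, smooth muscle and macrophage markers were also lower. The platelet and tendon sums overlapped, and the cartilage sum was higher. Sums of erythroid markers overlapped between genotypes, and those of mesothelium markers overlapped once their called genes were left out. As a share of all tested genes, 1.34% were called as lower in edgeR. Of 10 tested striated and cardiac muscle markers 6 were lower in mutant lungs, *Myh6*, *Myl7*, *Myl4*, *Tnnt2*, *Ryr2* and *Ckm*, with log2 fold changes from -0.73 to -0.44 and a list median of -0.58, and the list summed to 299 and 360 CPM in wild-type lungs and 242 and 223 CPM in mutant lungs with *Actc1* the most abundant. Of 12 lung epithelium markers 9 were lower, *Sftpb*, *Sftpa1*, *Abca3*, *Lamp3*, *Cdh1*, *Hopx*, *Ager*, *Pdpn* and *Scgb1a1*, with log2 fold changes from -1.36 to -0.26 and a list median of -0.40. Their list summed to 9919 and 9579 CPM in wild-type lungs and 6858 and 7972 CPM in mutant lungs, with *Sftpc* the most abundant. Without the called genes the epithelium list held *Sftpc*, *Nkx2-1* and *Epcam*. Of these only *Sftpc* was lower in both mutant lungs (5815 and 5630 CPM against 3876 and 4750 CPM). *Nkx2-1* overlapped between genotypes, as did *Epcam* (144 and 152 CPM against 148 and 139 CPM). Endothelial markers had 1 of 10 lower, *Cldn5* (-0.34, adjusted p = 0.0379), a median of -0.13, with sums of 2130 and 2133 CPM against 1955 and 1937 CPM and *Cdh5* and *Pecam1* the most abundant, at 389 and 360 CPM against 365 and 336 CPM and at 384 and 370 CPM against 340 and 341 CPM. Mesothelium markers had 2 of 8 lower, *Msln* and *Krt19* (-0.53 and -0.35), with 4 negative and 4 positive log2 fold changes and a median of -0.04. Their sums were 622 and 661 CPM against 474 and 556 CPM with *Krt19* the most abundant, and 177 and 198 CPM against 173 and 186 CPM without the called genes. Which cells the *Krt19* count came from was not tested. Erythroid markers had 2 of 7 lower, *Hba-a2* and *Alas2* (-0.41 and -0.53), a median of -0.38, with sums of 4274 and 5368 CPM against 3772 and 4286 CPM and *Hbb-bs* the most abundant. Immediate early genes, which respond to handling and stress, had 4 of 16 lower, *Ier3*, *Klf2*, *Klf4* and *Btg2*, with log2 fold changes from -0.74 to -0.32 and a list median of -0.30, and summed to 618 and 649 CPM against 509 and 526 CPM with *Btg2* the most abundant. No marker of these lists was at 0 in all lungs. Their part in the levels of the 9 genes, in *Itgb6* and *Spock2*, and in the other called genes was not tested.

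To describe how *Fn1*, *Thbs1* and *Thbs2* varied over the 4 lungs, their log2 CPM (pseudocount 0.5), centered on its own mean, was set against that of the 217 tested genes of the lists. *Fn1* was closest to *Hhip*, *Spp1* and *Calr*, with root mean square differences of 0.022, 0.0392 and 0.0463. *Spp1* had 9 to 18 counts a lung and lay near the pseudocount, which narrows its differences between lungs, so its likeness to *Fn1* cannot be read at this depth. *Thbs1* was closest to *Adamts1* (0.0315), *Actg2* (0.0424) and *Thbs2* (0.0436). *Thbs2* was closest to *Synpo2* (0.0243), *Sox9* (0.0243) and *Adamts9* (0.028). *Thbs1* and *Adamts1*, a protease that cleaves versican, were both highest in mutant lung 1. With 4 lungs these are descriptions without a test.

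Promoter sequences from RefSeq (GRCm38.p6, 250 bases before to 50 after the gene start) were matched for 7 of the 9 members, and *Fn1* and *Thbs1* had no entry. They were searched on both strands for motifs of factors that act downstream of actomyosin tension or growth factors, the CArG box of SRF, GGAATG of TEAD and TGANTCA of AP-1, which occurred in 1.63%, 14.7% and 7.81% of 32851 promoters. The only matches were 2 TEAD motifs in *Thbs4*, on the strand opposite to the gene and overlapping by 1 base, from 197 to 187 bases before its start. The stretch is shown because it holds every match among the members, with both motifs in capitals, read along the minus strand of chr13:92794996-92795024.
Thbs4: tgtccacctCATTCCATTCCgtctggtct
A match of letters is a description, and binding of these factors was not analysed here.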

How the data were processed

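The deposited values were raw counts, 1 value per Ensembl gene and lung. To make these counts, the authors isolated RNA with Trizol, prepared TruSeq Stranded mRNA libraries, trimmed single-end reads, aligned them to GRCm38 with STAR 2.4.0a and counted them on exons with featureCounts 1.5.1, leaving out reads in several genes or regions. The strand setting is not given in the sources used here. Lungs were grouped by their labels and came from separate mice. Replicate lungs differed by more than counting error (chi-square per degree of freedom 7.47 in wild-type and 12.6 in mutant lungs).

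Counts were tested in R 4.3.3 with edgeR 4.0.16 (TMM, glmQLFit with robust = FALSE, glmQLFTest) on the 18763 of 28549 detected genes that averaged 5 counts or more, and p was adjusted over all of them. The 95% interval used the SE and the moderated degrees of freedom of that fit. The test was checked on simulated counts. CPM used TMM libraries, and RPKM the union of exons in the GENCODE annotation of GRCm38. Genes named were the 9 members, every gene of the 17 lists with an adjusted p under 0.05 or, without one, the most abundant gene of a marker list, and *Itga5*, *Itgb1*, *Cd36*, *Cd47*, *Cd44*, *Mmp2*, *Mmp9*, *Mmp14*, *Comp* and *Myh10*. *Nkx2-1*, *Xist*, *Ddx3y*, *Mepe*, *Scx*, *Pecam1*, *Epcam* and the most abundant genes of lists that held calls were named in addition after their values were seen. For *Fn1*, *Thbs1* and *Thbs2* the 3 most alike list genes were named. Members and lists were chosen with earlier results of these data known. Antisense genes also overlap exons of *Myh6*, *Myl4*, *Ckm*, *Abca3*, *Hopx*, *Alas2*, *Mfap4*, *Hhip* and *Adamts9*, a gene on the same strand overlaps *Mkx*, and *Hba-a2* has a near-identical copy, so their counts are uncertain. Of 237 listed symbols, 236 had a row in the table, and summed levels include listed genes too low to be tested.

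Alternatives were DESeq2 size factors or library totals for scaling, no filter or filterByExpr, the Wald test of DESeq2 1.42.0, robust = TRUE, a replicate block, leaving out chromosomes X, Y and MT, leaving out each lung, and the longest transcript as length. A crossed block was chosen after seeing the data.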

Additional observations from a re-analysis of the deposited data

How the results depend on the processing

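In the fits with all 4 lungs, 77 of the 79 alternative fold changes of the 9 genes that had an adjusted p kept their direction and side of the threshold, 2 passed it and 0 reversed, while the Wald test of DESeq2 gave none for *Thbs4* and *Spp1*. Those 2 came with no filter on low counts, where 2 members were called, *Postn* (-0.15, adjusted p = 0.0450) and *Vcan* (0.18, adjusted p = 0.0109); the cause was not tested. Over all fits with 4 lungs the adjusted p ranged from 0.0450 to 0.329 for *Postn* and from 0.0109 to 0.222 for *Vcan*. The number of genes called among all tested was 308 in the reported fit, 1162 with no filter (688 lower and 474 higher, 59.2% lower) and 474 with robust = TRUE. Library totals gave 234 lower and 112 higher genes (67.6% lower), against 252 and 56 (81.8% lower) with TMM. With the replicate block, 710 genes were called (466 lower, 244 higher), which included the 308 of the reported fit, and no member was called. The Wald test of DESeq2 called 229 of those 308, the fewest among the fits with all 4 lungs. Calls of the named list genes are from the reported fit, and their calls under the alternatives are not given here. Same-numbered lungs share only a number, and their deviations from the mean of the genotype correlated at -0.214 across genes, which are not independent replicates. The crossed block, chosen after seeing the data, pairs the lungs with high *Xist* and the lungs with high *Ddx3y*. It gave 415 called genes, 320 lower and 95 higher, among them 283 of the 308. Leaving out each lung in turn, which assumes that the lone lung varies like the other genotype, gave 206 to 1643 called genes, the highest without mutant lung 2, and 0 to 1 called members. Of 36 such fold changes, 30 kept direction and side, 1 passed the threshold and 5 reversed. The ranges were -0.15 to 0.09 for *Fn1*, -0.061 to 0.17 for *Thbs1* (-0.005 without wild-type lung 1), -0.26 to 0.30 for *Spp1* (0.04 without mutant lung 2) and 0.086 to 0.259 for *Vcan*. With 2 lungs per genotype, differences of the size seen for most members could not be told from the spread between lungs, and for *Thbs4* and *Spp1* low counts limit precision further.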
